A study of Homo sapiens with 12 samples.

Results

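The genes described here make cholesterol or control how much of it a cell makes, moves and stores. They are 28 of the 22170 genes in a table of normalized read counts from SKBR3 cells, listed by symbol for their role in the pathway: 6 genes of the mevalonate segment, 2 of prenyl diphosphate synthesis, 3 from squalene to lanosterol, 9 from lanosterol to cholesterol, 5 of sterol sensing and 3 of sterol transport, uptake and storage. Each of the 28 stood in the table under its own symbol, and each passed the filter on low values. SKBR3 is an established human breast cancer line with amplified ERBB2 (the HER2 gene), and its genotype is given as WT. All 12 libraries came from this line and were split and seeded in the same way, at 350000 cells per plate, with 3 libraries in each of 4 groups. The DMSO group had vehicle alone. The lapatinib group had 100 nM lapatinib, an inhibitor of the EGFR and HER2 kinases, for the last 24 h. In the GSK126 group, 5 µM of this inhibitor of EZH2, the methyltransferase subunit of the repressive complex PRC2, was present for 7 days. The group called both drugs had the 7 days of GSK126 and, for the last 24 h, lapatinib. Whether the 3 libraries of each group were separate cultures is not in the labels, so the p-values here measure spread between libraries that may be technical only.

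Cholesterol synthesis starts from acetyl-CoA, runs through mevalonate and the prenyl diphosphates to squalene, and ends with the oxidations and reductions that turn lanosterol into cholesterol. When membrane sterol is low, SCAP escorts the transcription factors encoded by SREBF1 and SREBF2 from the endoplasmic reticulum to the Golgi, where they are cut, and the released part enters the nucleus and turns on most genes of the pathway together. When sterol is high, the proteins encoded by INSIG1 and INSIG2 hold SCAP back. The released factor is known to act beside NF-Y, which binds CCAAT boxes, and Sp1, which binds GC boxes. Growth factor signalling through mTORC1 is a known input to this system.

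Promoter sequences from RefSeq (GRCh38.p14, 250 bases before to 50 after each start) matched 25 of the 28 genes, and ACAT2, FDFT1 and SQLE had no entry. The letters CCAAT, read on both strands, were in a promoter of 19 of the 25 genes (76.0%), against 42.63% of the 10220 tested genes with a promoter and 34.61% of all 35116 promoters. At least 2 copies were found for 12 of the 25, against 15.85% of the tested genes. CCAAT was found for 9 of the 11 matched genes that lapatinib lowered and for 10 of the other 14. The GC box GGGCGG was found for 23 of 25 (75.95% of the tested genes), the E-box CACGTG for 4 of 25 (12.54%), and the sterol element TCACNCCAC for 1 of 25, SREBF2 (1.41%). None of these motifs contains another, although matches of different motifs may share bases. A match describes the letters and is not a measured binding site.

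The 200 bases before the start are shown, 5′ to 3′ on the gene's strand, for genes whose values carry the comparisons below. SREBF2, which passed in no comparison, is shown as the only matched gene with the sterol element. The sequences of FDPS (chr1:155308666-155308865, plus strand), EBP (chrX:48521608-48521807, plus strand) and MSMO1 (chr4:165327469-165327668, plus strand) belong to enzymes that fell with lapatinib, and that of MVD (chr16:88663092-88663291, minus strand) to an enzyme of the same pathway that passed the test only in the comparisons of both drugs. TM7SF2 (chr11:65111672-65111871, plus strand) is shown as the enzyme that rose. Capitals in these mark CCAAT on either strand, where ATTGG is its reverse complement. In INSIG1 (chr7:155297678-155297877, plus strand) they mark the E-box, and in SREBF2 (chr22:41832905-41833104, plus strand) the sterol element.
FDPS: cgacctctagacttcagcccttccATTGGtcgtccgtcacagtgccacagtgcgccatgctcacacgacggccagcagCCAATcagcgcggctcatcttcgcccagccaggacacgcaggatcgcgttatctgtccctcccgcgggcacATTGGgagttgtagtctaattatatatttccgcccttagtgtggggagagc
EBP: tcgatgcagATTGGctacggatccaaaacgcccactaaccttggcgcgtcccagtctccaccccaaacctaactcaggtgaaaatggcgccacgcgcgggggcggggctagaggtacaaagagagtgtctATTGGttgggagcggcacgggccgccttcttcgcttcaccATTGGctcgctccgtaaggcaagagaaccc
MSMO1: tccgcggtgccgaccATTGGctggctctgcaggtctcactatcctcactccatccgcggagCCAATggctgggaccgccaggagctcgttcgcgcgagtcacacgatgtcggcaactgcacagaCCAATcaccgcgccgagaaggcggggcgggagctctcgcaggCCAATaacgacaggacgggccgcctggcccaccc
MVD: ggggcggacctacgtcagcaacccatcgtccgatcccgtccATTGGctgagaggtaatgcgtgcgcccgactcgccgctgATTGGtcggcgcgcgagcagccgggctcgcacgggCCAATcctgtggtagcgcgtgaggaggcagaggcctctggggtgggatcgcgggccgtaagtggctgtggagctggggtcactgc
TM7SF2: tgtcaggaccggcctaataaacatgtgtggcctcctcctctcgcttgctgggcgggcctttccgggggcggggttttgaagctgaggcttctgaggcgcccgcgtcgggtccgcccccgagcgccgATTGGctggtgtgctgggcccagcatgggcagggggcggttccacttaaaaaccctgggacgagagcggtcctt
INSIG1: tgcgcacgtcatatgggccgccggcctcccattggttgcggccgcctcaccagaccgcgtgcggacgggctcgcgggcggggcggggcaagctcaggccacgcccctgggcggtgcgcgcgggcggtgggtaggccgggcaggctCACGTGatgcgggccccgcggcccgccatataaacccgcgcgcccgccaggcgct
SREBF2: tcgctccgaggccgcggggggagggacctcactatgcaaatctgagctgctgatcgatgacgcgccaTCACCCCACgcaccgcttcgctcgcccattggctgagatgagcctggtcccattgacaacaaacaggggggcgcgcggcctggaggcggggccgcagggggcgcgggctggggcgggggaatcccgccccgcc
The copies of CCAAT began 176, 122 and 51 bases before the start in FDPS, 191, 70 and 30 bases before it in EBP, and 185, 139, 76 and 34 bases before it in MSMO1. TM7SF2, the gene of this set that rose with lapatinib, held a single copy, 74 bases before its start. Among genes whose CCAAT copies are not marked here, NSDHL, which fell with lapatinib, held 5. INSIG1, which fell, held 1, and CYP51A1 and LBR, which also fell, held 0. MVK, which did not pass with lapatinib, held 5. A link between the number of copies and the change was not tested.

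Libraries held 17.7 to 30.3 M reads on genes, the lowest in library 1 of both drugs. It detected 21669 genes, and the other libraries 15059 to 17338. Of genes with very few reads in the rest of the libraries, it had a read for 89.0%. The same share was 3.10% to 10.6% for the other libraries. The libraries were clustered by the proportions of the spike-in transcripts among themselves, which the labels do not describe. The clustering was cut at 3 sets, a number chosen for it and not found by it. The first set held the DMSO and lapatinib libraries with libraries 2 and 3 of both drugs. The second held GSK126 libraries 2 and 3 with library 1 of both drugs, and the third GSK126 library 1 alone. For sterol genes the median SD within a group (log2 scale) was 0.0898 with lapatinib, 0.161 with both drugs, 0.199 with DMSO and 0.315 with GSK126. ERBB2 and GRB7, the co-amplified genes that define the line, and the luminal keratins KRT8, KRT18 and KRT19 were high in every library, though not constant. ERBB2 went from 154286 ± 11816 in DMSO to 297566 ± 7690 with lapatinib (SD, n = 3), and GRB7 from 14865.5 ± 1361 to 41530.5 ± 2811. EPCAM, an epithelial marker, went from 8081 ± 707 to 4792 ± 252. CDH1, the epithelial cadherin, ran from 0 to 12.4, with its highest value in library 1 of both drugs. MKI67, a marker of dividing cells, went from 8046 ± 482 in DMSO to 1077 ± 38.9 with lapatinib (SD, n = 3). Fewer cells of a kind and less RNA per cell cannot be told apart in such bulk libraries.

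With lapatinib, 13 of the 28 sterol genes fell and 2 rose. Among all 14179 genes tested, 14.3% were lower and 13.7% higher by the same rule, an adjusted p under 0.05 in limma (Benjamini-Hochberg over all genes tested). The steepest falls were in the thiolase gene ACAT2 (4.74-fold), the sterol isomerase gene EBP (3.17-fold), the sensor gene INSIG1 (2.97-fold) and FDPS (2.66-fold), and 6 of the 13 fell by at least 2-fold. How many of all tested genes fell that far is not given here. TM7SF2 rose 2.22-fold and SCAP 1.38-fold. The median log2 change of the 28 genes was -0.43, against 0.04 for all tested genes. In 16 of the 28 every lapatinib library lay below every DMSO library, and in 5 every one lay above, against 27.2% and 28.2% of all tested genes.

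In cells that already had GSK126, lapatinib gave 13 lower and 1 higher of the 28 genes, against 9.71% and 8.48% of all tested genes, with a median log2 change of -0.48 (0.04 for all genes). Libraries did not overlap for 14 lower and 2 higher of the 28 (14.0% and 15.6% of all tested genes). These libraries are other ones than those of lapatinib against DMSO, but the fit pools the spread of all 12 libraries, so the passes are not independent. Of the 28, 10 passed in both comparisons in the same direction, 5 only in that without GSK126 and 4 only in that with it, and 24 had the same sign, 18 of them lower in both. The matching shares of all tested genes are not given here, so this overlap cannot be called particular to sterol genes. The test of the difference between the 2 effects called none of the 28 (limma, smallest adjusted p = 0.646), against 0.00705% of all tested genes lower and 0.0141% higher, and edgeR and DESeq2 also called 0. At an unadjusted p under 0.05 it gave 1 gene, SCAP (difference -0.58 ± 0.20), which is 1 of 28 against 5.90% of all genes. The SE of the difference ran from 0.17 (FDFT1) to 0.50 (STARD4) on the log2 scale, and a p that misses the threshold does not show equal effects.

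**Figure D1:**
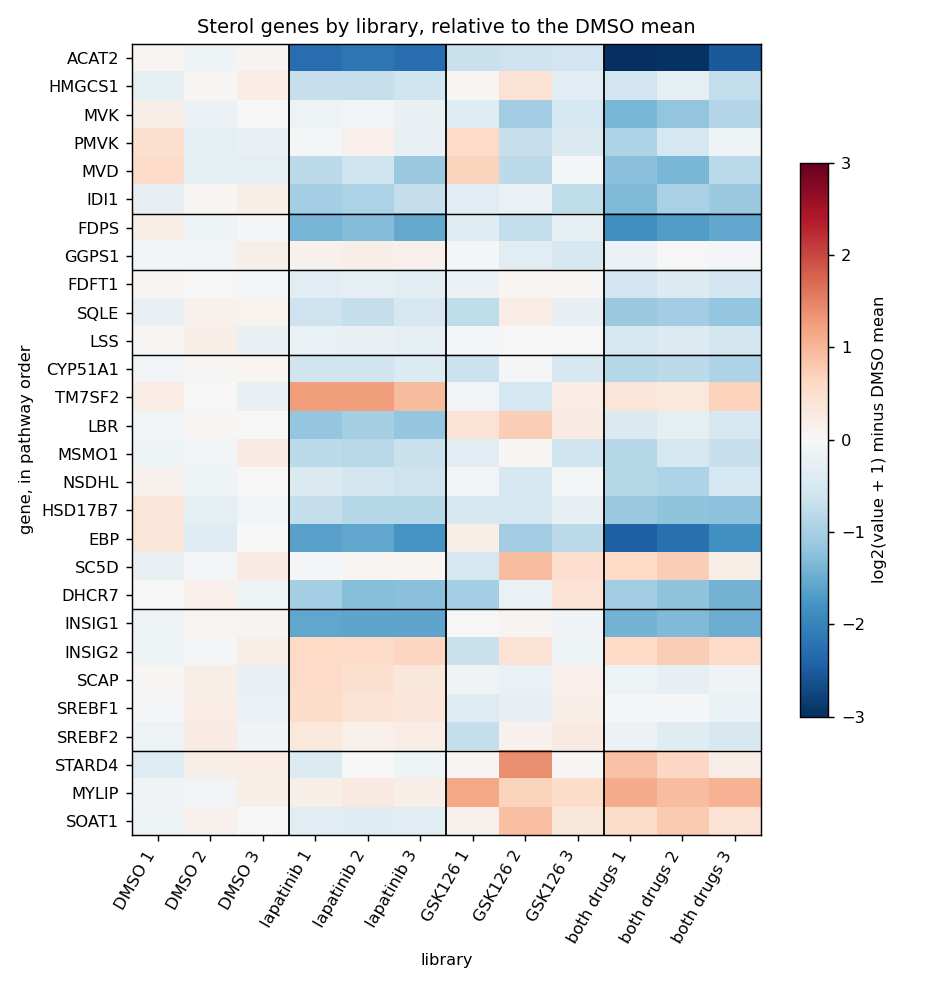
Each row is a gene in pathway order and each column a library; colour is log2(value + 1) minus the mean of the 3 DMSO libraries, on a scale that ends at -3 and 3, so ACAT2 in libraries 1 and 2 of both drugs is drawn at or near its end. The columns with lapatinib are blue for most synthesis genes and red for TM7SF2 and INSIG2, and GSK126 columns differ more among themselves.

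The mevalonate segment fell in part. With lapatinib 3 of its 6 genes fell and none rose, and in the presence of GSK126 3 of 6 fell. ACAT2 makes acetoacetyl-CoA, the starting block of the pathway. Its counts were 2879, 2518 and 2941 in DMSO and 569, 612 and 572 with lapatinib, then 1735, 1792 and 1864 with GSK126 and 309.9, 357 and 479 with both drugs. The 4 groups did not overlap, in the order DMSO, GSK126, lapatinib, both drugs. The log2 change with lapatinib was -2.25 ± 0.16 (SE, adjusted p = 9.09e-07) without GSK126 and -2.26 ± 0.16 with it (adjusted p = 1.34e-06). ACAT2 shares exonic bases with TCP1 and SOD2 on the opposite strand in the annotation, and no source used here says that the counting used strand. TCP1, a chaperonin subunit gene, itself fell with lapatinib (-0.72 ± 0.19, adjusted p = 0.0122), from 12916 to 14879 counts to 8407 to 8663. In the presence of GSK126 TCP1 changed by -0.33 ± 0.19 (adjusted p = 0.241). SOD2 changed by -0.40 ± 0.16 with lapatinib alone (adjusted p = 0.0772) and fell in the presence of GSK126 (-0.61 ± 0.16, adjusted p = 0.0201). The reads of these genes and of ACAT2 cannot be told apart where they overlap.

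HMGCS1, the HMG-CoA synthase gene, had 1304, 1629 and 1858 counts in DMSO and 978, 982 and 1037 with lapatinib, with no overlap. Its log2 change was -0.66 ± 0.20 (adjusted p = 0.0256). GSK126 libraries (1652, 2141 and 1249) and those of both drugs (1054, 1279.7 and 952) overlapped, with a change of -0.59 ± 0.20 that missed the threshold (adjusted p = 0.0555). IDI1, the isomerase that supplies dimethylallyl diphosphate, had 2871, 3534 and 3858 counts in DMSO against 1664, 1768 and 2066 with lapatinib. With GSK126 it had 2688, 2951 and 2003 and with both drugs 1363, 1724 and 1570.0. Lapatinib libraries lay below their controls in both pairs of groups, by -0.90 ± 0.17 (adjusted p = 0.00233) and -0.70 ± 0.17 (adjusted p = 0.0149).

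MVD encodes the decarboxylase that makes isopentenyl diphosphate. It had 2019, 1137 and 1108 counts in DMSO and 788, 895 and 629.7 with lapatinib, 2161, 789 and 1321 with GSK126 and 568, 524 and 782 with both drugs. Library 1 was high in the DMSO and in the GSK126 group, and the spread was wide: the log2 change with lapatinib was -0.84 ± 0.33 (adjusted p = 0.0756) without GSK126 and -1.09 ± 0.33 with it (adjusted p = 0.0369). MVK, the mevalonate kinase gene, moved with GSK126 and is described there. PMVK, the next kinase, passed in no comparison. Its libraries ran from 1641 to 2801 in DMSO, 1720.2 to 2198 with lapatinib, 1226 to 2959 with GSK126 and 1040.5 to 1812 with both drugs.

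The gene pair of prenyl diphosphate synthesis was split. FDPS encodes farnesyl diphosphate synthase, whose product feeds squalene, prenylated proteins and other isoprenoids. Its counts were 9357, 7347 and 7836 in DMSO and 3082, 3281 and 2821 with lapatinib. With GSK126 they were 6315, 4852 and 6658 and with both drugs 2290.1, 2531 and 2743. Lapatinib libraries lay far below their controls with and without GSK126, by -1.41 ± 0.15 (adjusted p = 2.94e-05) and -1.23 ± 0.15 (adjusted p = 0.000133). GGPS1 lengthens the same chain to geranylgeranyl diphosphate. Its libraries were at 1071 to 1286 in DMSO, 1241 to 1289 with lapatinib, 819 to 1099 with GSK126 and 1016 to 1129 with both drugs, and it passed in no comparison. In the annotation GGPS1 shares 350 exonic bases with TBCE on the same strand and 138 with ARID4B on the opposite strand. Reads there may belong to either gene, so the values of GGPS1 are less certain.

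From squalene to lanosterol, 1 of 3 genes fell with lapatinib alone, and all 3 fell when lapatinib was added to GSK126. SQLE, the squalene epoxidase gene that adds the first oxygen, had 4045, 5135 and 5093 counts in DMSO and 3072, 2863 and 3324 with lapatinib. It had 2783, 5510.4 and 3973 with GSK126 and 2184, 2284 and 2123 with both drugs. The libraries with lapatinib were below those without it in both pairs, by -0.62 ± 0.20 (adjusted p = 0.0383) and -0.84 ± 0.20 (adjusted p = 0.013). FDFT1, the squalene synthase gene, went from 2895, 2774 and 2722 to 2229, 2279.7 and 2202 with lapatinib, and from 2471, 2903 and 2870.1 with GSK126 to 1863, 2107 and 1878 with both drugs. Neither pair overlapped, yet the changes were small, -0.32 ± 0.12 (adjusted p = 0.0572) and -0.49 ± 0.12 (adjusted p = 0.0121). LSS closes the rings. It had 2130.4, 2392 and 1801 counts in DMSO, 1826, 1788 and 1695 with lapatinib, 2013, 2113 and 2068 with GSK126 and 1452, 1566 and 1438 with both drugs, and the last group lay below all others (both drugs against GSK126 -0.48 ± 0.13, adjusted p = 0.0221).

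From lanosterol to cholesterol, 7 of 9 genes fell with lapatinib, and TM7SF2 rose. EBP, the isomerase that shifts a double bond in the sterol nucleus, had 6386, 3797 and 4929 counts in DMSO and 1588, 1669 and 1409.5 with lapatinib. GSK126 libraries had 5575, 2375 and 2870.1 and those of both drugs 895, 1051 and 1408. Every lapatinib library lay below every library without the drug, by -1.67 ± 0.29 (adjusted p = 0.00101) without and -1.61 ± 0.29 with GSK126 (adjusted p = 0.00198). DHCR7 encodes the reductase that turns 7-dehydrocholesterol into cholesterol. It went from 4646, 5263 and 4256 in DMSO to 2332, 1949.8 and 1959 with lapatinib, by -1.18 ± 0.27 (adjusted p = 0.00648). Its GSK126 libraries were far apart at 2337, 4109 and 6362, while those of both drugs stood at 2286, 2029 and 1762. The difference between these groups was -0.97 ± 0.27 (adjusted p = 0.0271), and without GSK126 library 3 or any library of both drugs it missed the threshold (adjusted p up to 0.0822). Without GSK126 library 3 it was -0.62 (adjusted p = 0.0785).

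CYP51A1, the lanosterol demethylase gene, had 4096, 4499 and 4523 counts in DMSO and 2885, 2884 and 3293 with lapatinib, which do not overlap (-0.53 ± 0.15, adjusted p = 0.0188). With GSK126 it had 2774, 4185 and 3149 and with both drugs 2398, 2544 and 2299.6. MSMO1, NSDHL and HSD17B7 encode the oxidase, the dehydrogenase and the ketone reductase that together remove the methyl groups at carbon 4. MSMO1 went from 1236, 1299 and 1619 to 796, 771 and 859 with lapatinib (-0.77 ± 0.17, adjusted p = 0.00601). NSDHL went from 1506, 1254 and 1376 to 1021, 941 and 899 (-0.53 ± 0.16, adjusted p = 0.0292). HSD17B7 went from 222, 142 and 161 to 105, 94.7 and 94.8 (-0.81 ± 0.21, adjusted p = 0.0115). In each of the 3 genes no lapatinib library reached a DMSO library. With GSK126 present, MSMO1 changed by -0.40 ± 0.17, which did not pass (adjusted p = 0.128), with 1112, 1398 and 904 counts before and 757, 949.7 and 848 after lapatinib. NSDHL (1301, 964 and 1334 against 759, 719.9 and 959) and HSD17B7 (123, 119 and 144 against 78.4, 74.4 and 73.2) fell, with changes of -0.56 (adjusted p = 0.0329) and -0.76 (adjusted p = 0.0232). HSD17B7 has a pseudogene, HSD17B7P2, at 14.9 to 29.6 counts, so its values are less certain. SC5D, the lathosterol desaturase gene, passed in no comparison, at 275 to 384 counts in DMSO, 314 to 336 with lapatinib, 222 to 615 with GSK126 and 364 to 539 with both drugs.

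TM7SF2 and LBR encode the alternative sterol reductases that act on the product of CYP51A1, and LBR is also the lamin B receptor of the inner nuclear membrane. They moved in opposite directions. TM7SF2 had 1039, 883 and 752 counts in DMSO and 2107, 2122 and 1703 with lapatinib, all above the DMSO libraries (1.15 ± 0.20, adjusted p = 0.00112). LBR had 1345, 1497 and 1439.8 in DMSO and 637, 717 and 635 with lapatinib, all below (-1.10 ± 0.15, adjusted p = 0.000148). With GSK126, TM7SF2 had 841, 608 and 1033 counts and LBR 1928, 2394 and 1686. With both drugs, TM7SF2 had 1134, 1097 and 1419 and LBR 1058, 1186 and 1024, so LBR fell (-0.87 ± 0.15, adjusted p = 0.0014), while the change of TM7SF2 did not pass (0.58 ± 0.20, adjusted p = 0.0642). The ratio of TM7SF2 to LBR within a library, which no scaling of libraries can move, was 4.79 times the DMSO mean with lapatinib (4.32 to 5.33 in its libraries), 0.658 times with GSK126 (0.410 to 0.989) and 1.79 times with both drugs (1.49 to 2.24).

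Of the 5 genes of sterol sensing, INSIG1 fell and SCAP rose with lapatinib. INSIG1 is itself a target of the SREBP factors it helps to retain. Its counts were 805, 922 and 945 in DMSO and 301, 298 and 297 with lapatinib, and 898, 947 and 827 with GSK126 and 331, 352 and 314 with both drugs. The DMSO and GSK126 libraries covered the same range, and all libraries with lapatinib lay below it. The log2 changes were -1.57 ± 0.13 (adjusted p = 3.51e-06) and -1.42 ± 0.13 (adjusted p = 1.24e-05). INSIG2, which retains SCAP in the same way, had 519.7, 562 and 652 counts in DMSO and 877, 862 and 896 with lapatinib. It had 363, 777 and 528 with GSK126 and 866, 963 and 856 with both drugs. Lapatinib libraries lay above their controls in both pairs, by 0.61 ± 0.22 (adjusted p = 0.0555), which missed the threshold, and by 0.75 ± 0.22 (adjusted p = 0.0321). Within a library, the ratio of INSIG2 to INSIG1 was 4.54 times the DMSO mean with lapatinib (4.47 to 4.65), 0.919 times with GSK126 (0.623 to 1.27) and 4.16 times with both drugs (4.04 to 4.23). Both ratios were picked after the values were seen, for the shared role of each pair, and carry no test.

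**Figure D2:**
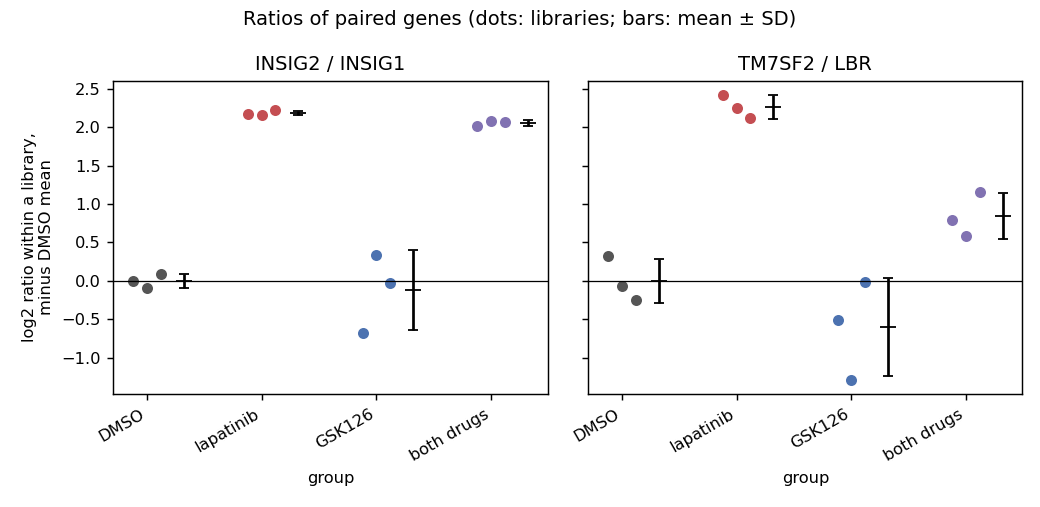
Log2 ratio of INSIG2 to INSIG1 and of TM7SF2 to LBR within each library (dots), minus the mean of the DMSO libraries, with mean and SD of 3 libraries as bars. The lapatinib libraries sit near 2.18 and 2.26; with both drugs the first ratio stays at 2.06 and the second is at 0.84.

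SCAP, the escort of the SREBP factors, had 2590.0, 2854 and 2163 counts in DMSO and 3755, 3526 and 3186 with lapatinib, with no overlap (0.47 ± 0.14, adjusted p = 0.0281). It had 2359, 2186 and 2792 with GSK126 and 2275, 2128 and 2357 with both drugs, which overlap. SREBF1 had 12050.4, 14301 and 10697 in DMSO and 18066, 16237 and 15689.8 with lapatinib, a change of 0.44 ± 0.16 that missed the threshold (adjusted p = 0.0629) although the groups do not overlap. Its counts were 9371, 10387 and 13924 with GSK126 and 11802, 12021 and 10746 with both drugs. Scaled to the spike-in total, SCAP and SREBF1 were at -0.07 and -0.10 with lapatinib, the other side of 0. That scaling moved the median of all genes by -0.53, so that both stayed above that median. SREBF2 passed in no comparison, at 3246 to 4266 counts in DMSO, 3969.9 to 4474 with lapatinib, 2197 to 4351 with GSK126 and 2563 to 3185 with both drugs.

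**Figure D3:**
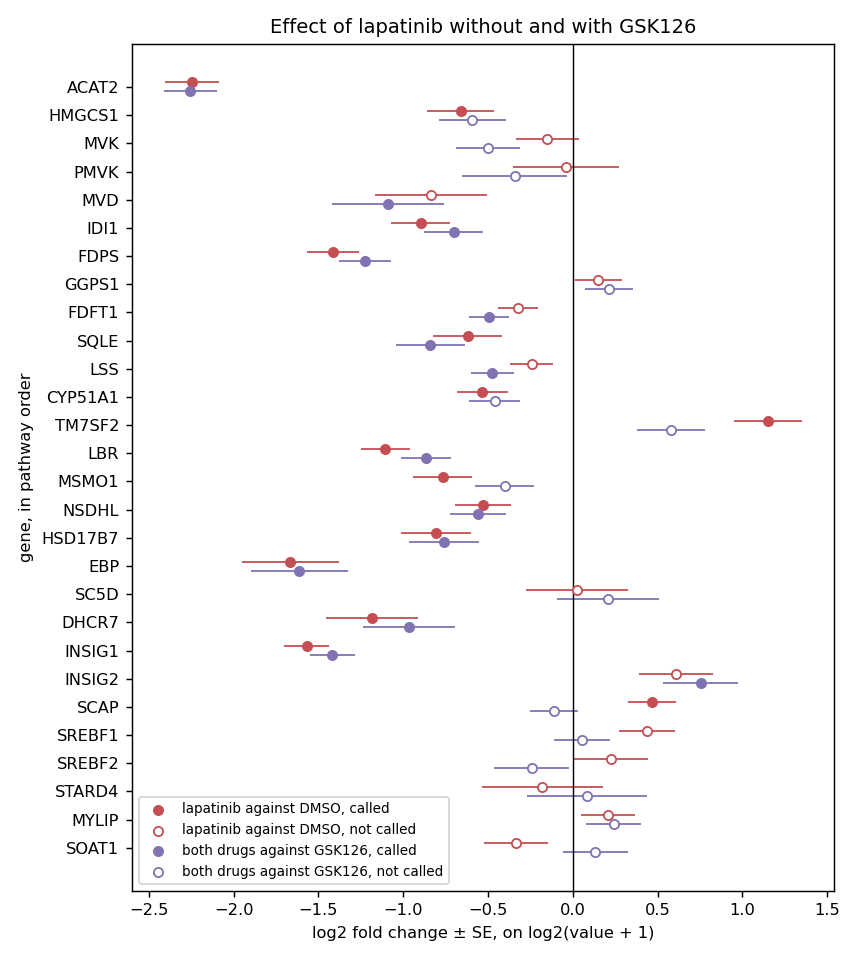
Log2 change with lapatinib (point) and its SE (bar) for each of the 28 genes, without GSK126 (lapatinib against DMSO) and with it (both drugs against GSK126); filled points passed an adjusted p under 0.05. The points of a gene lie close together for ACAT2 (-2.25 and -2.26), EBP (-1.67 and -1.61) and INSIG1 (-1.57 and -1.42), and SCAP is at 0.47 and -0.11; with the spike-in total as scale, 6 of the 28 changed sign without GSK126 (GGPS1, SC5D, SCAP, SREBF1, SREBF2 and MYLIP) and 8 with it (GGPS1, TM7SF2, SC5D, INSIG2, SREBF1, STARD4, MYLIP and SOAT1), and with the total count as scale MVK and PMVK did so without and SCAP with it.

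Some of these calls rested on single libraries or on the scaling. Scaled to the spike-in total, ACAT2, FDPS, EBP and INSIG1 kept their call in lapatinib against DMSO, and the other 9 lower and both higher calls were lost. The median log2 change of the sterol genes in this comparison was -0.97 on that scale and -0.43 on the deposited scale. For all tested genes it was -0.49 and 0.04. The median fall was thus not smaller with the spike-in total, and why calls were lost was not tested. Scaled to the total count, HMGCS1, SQLE, CYP51A1, MSMO1 and NSDHL lost their call. ACAT2, IDI1, FDPS, TM7SF2, LBR, MSMO1, EBP, DHCR7 and INSIG1 kept their call in lapatinib against DMSO when any of the 12 libraries was left out. HSD17B7 lost it without DMSO library 1 (adjusted p = 0.052). SCAP lost it without DMSO library 1 or 3 or lapatinib library 1 or 2 (up to 0.121), CYP51A1 without DMSO library 2 or 3 or lapatinib library 1 or 2 (up to 0.0739), HMGCS1 without DMSO library 2 or 3 or any lapatinib library (up to 0.105), and NSDHL without DMSO library 1 or 3 or any lapatinib library (up to 0.104). SQLE lost it without DMSO library 2 or 3, any lapatinib library, or library 1 or 2 of both drugs (up to 0.12). With GSK126 present, the 13 lower calls became 6 without library 1 of both drugs and 8 without library 2, and 5 when these 2 groups were fitted alone. Over all genes the 1377 lower calls became 864, 823 and 593. In this comparison ACAT2, FDPS, SQLE, LBR, EBP and INSIG1 kept their calls without any of the 12 libraries, although SQLE lost it with the total count as scale and when these 2 groups were fitted alone. The total count as scale left 6 lower calls and 1 higher (978 and 1311 of all genes), and the spike-in total 17 and 0 (3044 and 13 of all genes). IDI1 and FDFT1 lost theirs without library 1 of both drugs (adjusted p = 0.0699 and 0.0526), LSS without any library of both drugs (up to 0.0743), and HSD17B7 without these or GSK126 library 3 (up to 0.0795). MVD was lost without library 1 or 2 of lapatinib or of both drugs or GSK126 library 1 or 3 (up to 0.135), and NSDHL without those or lapatinib library 3 (up to 0.139). INSIG2 was lost without these except lapatinib library 3, and without library 3 of both drugs (up to 0.117). Within the spike-in set that holds library 1 of both drugs and GSK126 libraries 2 and 3, the differences were -2.56 for ACAT2, -1.54 for EBP, -1.42 for INSIG1, -1.31 for FDPS and -0.92 for LBR. The full comparison holds these libraries too and called these genes, so the values are no separate check.

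With GSK126 alone 2 of the 28 sterol genes fell and 2 rose, against 3.93% and 10.7% of all tested genes. The median log2 change was -0.14, against -0.04 for all genes. In 3 of the 28 every GSK126 library lay below every DMSO library and in 3 above, against 9.59% and 14.4% of all tested genes. In lapatinib-treated cells GSK126 gave 5 lower and 3 higher, against 6.35% and 11.5%, with a median of -0.25 (-0.03 for all genes), and 14 and 6 of the 28 did not overlap (23.6% and 23.7%). The libraries of these 2 comparisons are separate, but the fit pools the spread of all 12 libraries, so the passes are not independent. The 4 genes that passed in the first, ACAT2, MVK, LBR and MYLIP, passed in the second in the same direction. How many of all tested genes did so is not given here. In the second, TM7SF2, SCAP and SREBF1 also fell and SOAT1 rose.

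MYLIP encodes the ubiquitin ligase that sends lipoprotein receptors for degradation, a brake on sterol uptake. Its counts were 647, 658 and 782 in DMSO and 1539, 1104 and 1017 with GSK126, 783, 830.2 and 789 with lapatinib and 1501, 1323 and 1437 with both drugs. All 6 libraries with GSK126 lay above the 6 without it. The log2 change was 0.79 ± 0.16 without lapatinib (adjusted p = 0.00499) and 0.82 ± 0.16 with it (adjusted p = 0.00286). SOAT1, which esterifies cholesterol for storage, had 537, 651 and 597 counts in DMSO and 653, 1116 and 748 with GSK126, groups that do not overlap but differ by a change that did not pass (0.46 ± 0.19, adjusted p = 0.136). With lapatinib it had 468, 461 and 479.5 and with both drugs 875, 1029.8 and 799, a rise of 0.93 ± 0.19 (adjusted p = 0.00365). STARD4, a sterol carrier gene, was low and variable, at 56.4 to 86.4 in DMSO, 55.8 to 74.5 with lapatinib, 75.6 to 196 with GSK126 and 84.8 to 137 with both drugs, and passed in no comparison.

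MVK was lower with GSK126. It had 3105, 2423 and 2775 counts in DMSO and 2150.0, 1331 and 1917 with GSK126, with no overlap (-0.64 ± 0.19, adjusted p = 0.0353). With lapatinib it had 2493, 2606 and 2352 and with both drugs 1063, 1219 and 1495 (-0.99 ± 0.19, adjusted p = 0.00215). With lapatinib alone the libraries of MVK overlapped those of DMSO (-0.15 ± 0.19, adjusted p = 0.581). MVK shares exonic bases with MMAB on the opposite strand, whose reads cannot be told apart there without strand. MMAB changed by -0.33 ± 0.30 with GSK126 (adjusted p = 0.532) and -0.47 ± 0.30 in both drugs against lapatinib (adjusted p = 0.341), and it fell in both drugs against DMSO (-0.99 ± 0.30, adjusted p = 0.0178). ACAT2 fell with GSK126, by -0.63 ± 0.16 without lapatinib (adjusted p = 0.0172) and -0.64 ± 0.16 with it (adjusted p = 0.0126). SOD2, which overlaps it, changed by -0.30 ± 0.16 (adjusted p = 0.264) and -0.50 ± 0.16 (adjusted p = 0.0461, a fall that passed) in the same comparisons, and TCP1 changed by -0.47 ± 0.19 (adjusted p = 0.126) and -0.07 ± 0.19 (adjusted p = 0.857). LBR rose, by 0.47 ± 0.15 (adjusted p = 0.0463) and 0.71 ± 0.15 (adjusted p = 0.0039), and so moved against the fall with lapatinib. TM7SF2 (-0.70 ± 0.20, adjusted p = 0.0278), SCAP (-0.63 ± 0.14, adjusted p = 0.0075) and SREBF1 (-0.53 ± 0.16, adjusted p = 0.0404) were lower with both drugs than with lapatinib. With GSK126 alone none of the 3 passed against DMSO in limma.

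**Figure D4:**
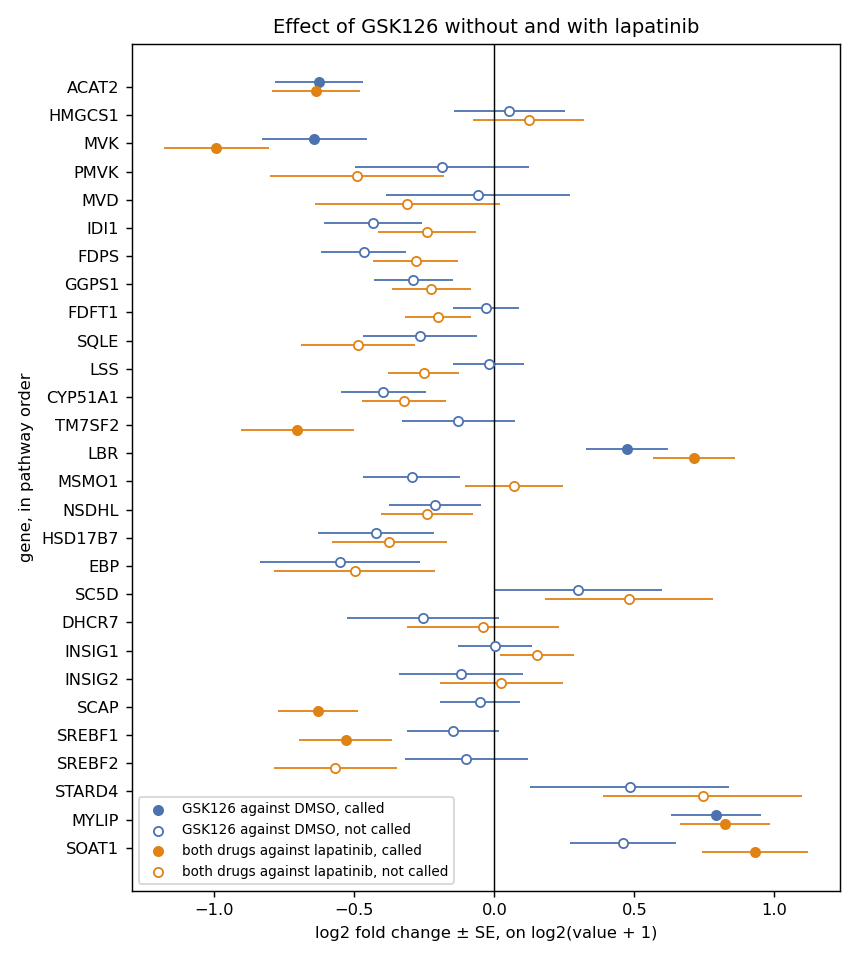
Log2 change with GSK126 (point) and its SE (bar) for each of the 28 genes, without lapatinib (GSK126 against DMSO) and with it (both drugs against lapatinib); filled points passed an adjusted p under 0.05. MYLIP (0.79 and 0.82) and LBR (0.47 and 0.71) lie above 0 and ACAT2 (-0.63 and -0.64) and MVK (-0.64 and -0.99) below it in both; of the points near 0, MVD, FDFT1, LSS, SCAP and SREBF2 changed sign with the total count as scale, FDFT1 and LSS with the spike-in total and INSIG1 with TMM (an edgeR scaling) without lapatinib, and with lapatinib DHCR7 did so with the total count and HMGCS1, MSMO1, INSIG1 and INSIG2 with the spike-in total.

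At the cut into 3 sets no DMSO library shares a set with a GSK126 library, so GSK126 against DMSO has no comparison within a set. With the set as a term, or with these 2 groups fitted alone, none of the 4 calls passed in limma. Nor did any of them pass with the spike-in total as scale. MYLIP kept its call without any of the 12 libraries. ACAT2 lost it without DMSO library 1 or 3 (adjusted p up to 0.0699). MVK lost it without DMSO library 1 or 3, any lapatinib library, GSK126 library 2 or library 2 of both drugs (up to 0.135), and LBR kept it only without GSK126 library 1 or 3 (up to 0.149 otherwise). Libraries 2 and 3 of both drugs share a set with the lapatinib libraries. Between them the differences were -0.88 for MVK, 0.73 for LBR, 0.78 for MYLIP, 0.95 for SOAT1, -0.64 for SCAP, -0.66 for TM7SF2, -0.50 for ACAT2 and -0.55 for SREBF1. These genes were picked for their calls in the full comparison, which holds the same libraries, so their direction here is no separate check. In both drugs against lapatinib, all 8 calls were lost with the spike-in total as scale. On the deposited scale MVK, LBR, SCAP, MYLIP and SOAT1 kept their calls without any of the 12 libraries. The call of ACAT2 was lost without lapatinib library 2 or library 1 or 2 of both drugs (adjusted p up to 0.0677), that of TM7SF2 without library 1 or 2 of either group (up to 0.112), and that of SREBF1 without DMSO library 1 or any library of the 2 groups (up to 0.164).

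**Figure D5:**
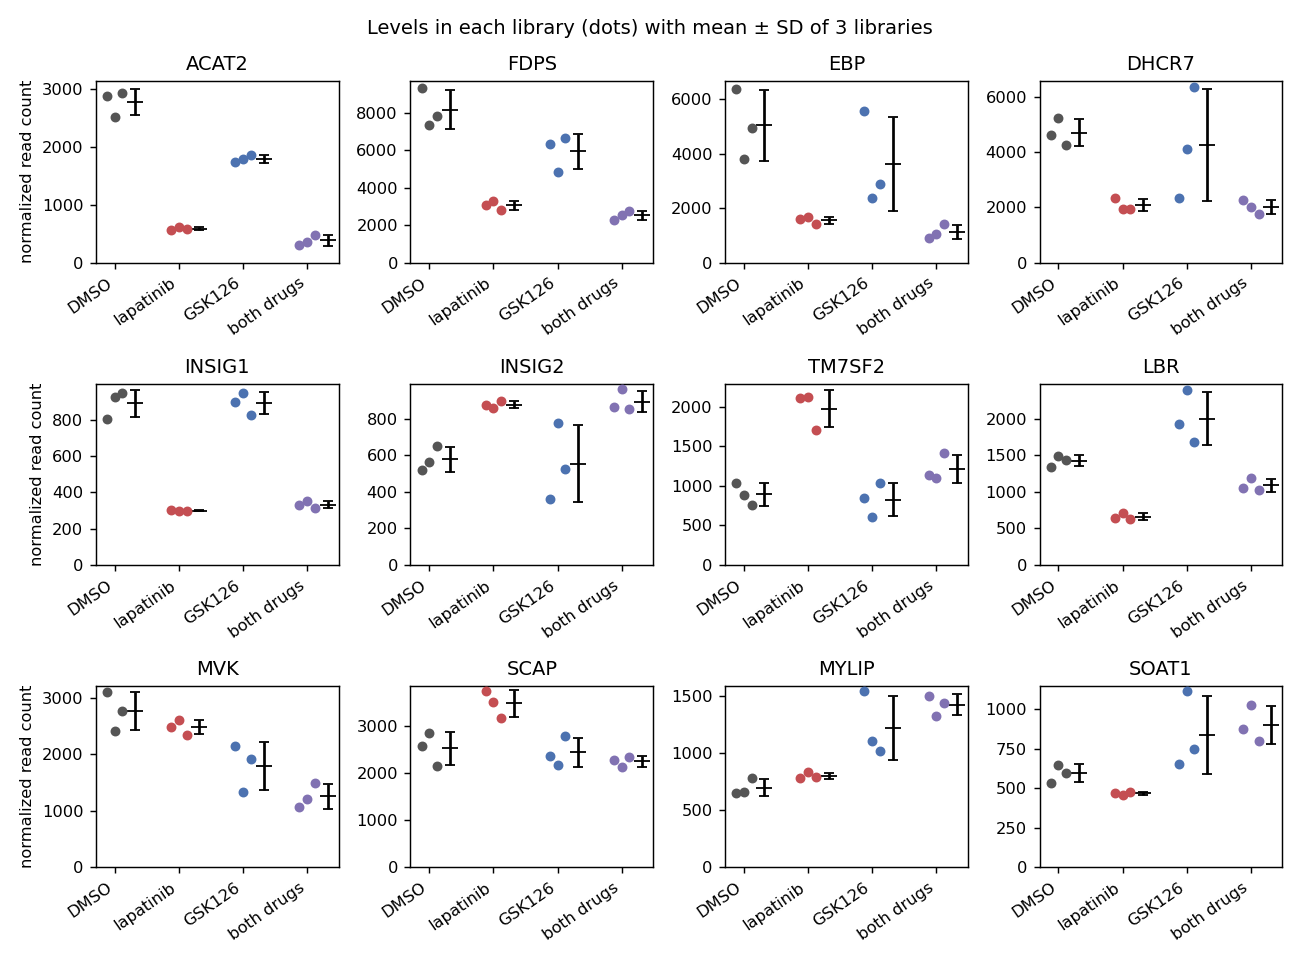
Normalized read counts of 12 of the genes in each library (dots), with mean and SD of 3 libraries as bars, on linear axes from 0. ACAT2, FDPS, EBP and INSIG1 are low in the groups with lapatinib, and MYLIP lies at 1017 to 1539 in the libraries with GSK126 and at 647 to 830.2 in the others.

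With both drugs against DMSO, 17 of the 28 genes were lower and 3 higher, against 20.1% and 22.0% of all tested genes, and 10 of the 17 fell by at least 2-fold. For the 2-fold falls no share of all tested genes is given here. The median log2 change was -0.54 (0.06 for all genes), and 18 of the 28 lay below DMSO without overlap and 4 above (26.8% and 30.3%). ACAT2 reached -2.88 ± 0.16 (adjusted p = 4.6e-08), a 7.37-fold fall, EBP -2.16 ± 0.29 (adjusted p = 7.03e-05) and FDPS -1.69 ± 0.15 (adjusted p = 2.7e-06). MVK, which lapatinib alone did not lower by the test, fell here (-1.14 ± 0.19, adjusted p = 0.000357). In the mevalonate segment 5 of 6 genes fell. The 3 that rose were MYLIP (1.03 ± 0.16, adjusted p = 0.000258), INSIG2 (0.63 ± 0.22, adjusted p = 0.0342) and SOAT1 (0.59 ± 0.19, adjusted p = 0.0231), and scaled to the spike-in total INSIG2 and SOAT1 were at -0.37 and -0.41, below 0 but above the median of all genes, which that scaling moved by -1.00. None of these 3 passed on that scale. LBR was lower (-0.39 ± 0.15, adjusted p = 0.0469), a call lost without any DMSO, lapatinib or both-drugs library (adjusted p up to 0.126). HMGCS1 was lost without DMSO library 2 or 3, any lapatinib library or library 1 or 3 of both drugs (up to 0.159), and MVD without DMSO library 1 or library 2 of both drugs (up to 0.0688). INSIG2 was lost without DMSO library 1 or 2 or any library of both drugs (up to 0.11), and SOAT1 without DMSO library 1 or 3 or library 1 or 2 of both drugs (up to 0.1).

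Other gene lists around the pathway are read against the same shares of all tested genes, 14.3% lower and 13.7% higher with lapatinib and 3.93% lower and 10.7% higher with GSK126. Calls in these lists are given for the main fit only. Over all genes, GSK126 against DMSO had 2069 calls in that fit. There were 869 with these 2 groups fitted alone and 446 with the spike-in set as a term. Of 10 accessory proteins of sterol synthesis, lapatinib lowered 3 and raised 1. TMEM97, a membrane protein of sterol traffic, fell from 2389 ± 107 to 659 ± 62.8 (SD, n = 3), by -1.86 ± 0.12 (adjusted p = 6.38e-07), and by -1.85 ± 0.12 in the presence of GSK126. CYB5B (-0.85 ± 0.13, adjusted p = 0.000562), a cytochrome b5 gene, and PGRMC1 (-0.50 ± 0.14, adjusted p = 0.0166) also fell, and PGRMC2 rose (0.67 ± 0.13, adjusted p = 0.00194). GSK126 lowered CYB5A (-1.09 ± 0.25, adjusted p = 0.0104), CYB5B and TMEM97, 3 of the 10, and raised none. The median log2 change of this list was -0.18 with lapatinib and -0.36 with GSK126.

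Of 16 genes that use isoprenoids for other products, 5 were lower and 1 higher with lapatinib (14.3% and 13.7% of all tested genes). PDSS1 (-1.11 ± 0.24, adjusted p = 0.0048) and COQ2 (-1.05 ± 0.13, adjusted p = 9.71e-05), both of ubiquinone synthesis, had the largest falls of the 5. Among the rest of the 5 were RABGGTB (-0.42) and ICMT (-0.52), of protein prenylation, which were named after their values were seen. In contrast, SRD5A3, of dolichol synthesis, rose (0.68 ± 0.15, adjusted p = 0.00585). With GSK126 alone none of the 16 passed in limma.

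Fatty acid synthesis, which SREBF1 is known to drive, had 2 of 13 genes lower with lapatinib, a share near the 14.3% of all tested genes, and none higher, with a median of -0.27. They were the desaturase gene SCD (-0.81 ± 0.13, adjusted p = 0.00056) and the elongase gene ELOVL6 (-1.31 ± 0.23, adjusted p = 0.00122). FASN, the fatty acid synthase gene, did not pass with lapatinib (0.26 ± 0.21, adjusted p = 0.392) and was lower with both drugs than with lapatinib (-1.27 ± 0.21, adjusted p = 0.000859). GSK126 raised the desaturase gene FADS2 from 1.23, 8.89 and 9.61 counts to 88.7, 90.5 and 163 (4.16 ± 0.61, adjusted p = 0.000446), and with both drugs it was at 16.2, 5.66 and 12.5. ACSS2 (-0.47, adjusted p = 0.0411) and ME1 (-0.63, adjusted p = 0.0478) fell with GSK126 in limma, to make 2 lower and 1 higher of 13. The GSK126 libraries of ME1 overlapped those of DMSO.

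Among 19 genes that carry, cut or degrade the SREBP system's proteins, lapatinib lowered none by the test in limma and raised 4, among them MBTPS1, the protease that makes the first cut (0.51 ± 0.15, adjusted p = 0.024), the ligase gene SYVN1 (0.47) and ERLIN2 (0.75). GSK126 moved none of the 19 past the threshold. Of 17 tested genes of sterol traffic, storage and efflux, lapatinib lowered 2 and raised 3. SCARB1, the receptor for high density lipoprotein, went from 5175 to 5749 counts in DMSO to 2938 to 3309.9 with lapatinib (-0.84 ± 0.13, adjusted p = 0.000461) and 6706 to 8629.8 with GSK126 (0.46 ± 0.13, adjusted p = 0.0305). CAV1 fell (-0.62, adjusted p = 0.0248). The oxysterol receptor gene NR1H3 rose with lapatinib (0.86, adjusted p = 0.0277), and so did HSD3B7 (0.46), named after its values were seen. GRAMD1C, a carrier of sterol from the plasma membrane, also rose with lapatinib (1.81 ± 0.26, adjusted p = 0.000274), while its relative GRAMD1A rose with GSK126 (1.32 ± 0.19, adjusted p = 0.000389). CAV1, the caveolin gene, rose with GSK126 from 129.9, 127 and 149 to 785, 647 and 557 counts (2.27 ± 0.18, adjusted p = 4.32e-06).

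Markers of other cell types were checked beside these values. Summed over 4 endothelial genes, the libraries held 206 to 269.8 counts in DMSO, 185 to 238 with lapatinib, 934 to 1561 with GSK126 and 784 to 1093 with both drugs. CDH5 made up most of the sum with GSK126, while PECAM1 stayed between 0 and 4.98. Summed over 5 leukocyte genes they held 183 to 225 in DMSO, 235 to 320.2 with lapatinib, 341 to 502 with GSK126 and 655 to 784 with both drugs, mostly from CD68. PTPRC, the defining leukocyte gene, was at 19.9 in library 1 of both drugs and at 0 to 1.53 in the other libraries. That library is the one with reads on many more genes. Summed over 6 fibroblast genes they held 249 to 392 in DMSO, 202 to 245 with lapatinib, 142 to 242 with GSK126 and 70.4 to 172 with both drugs. The 2 adipocyte genes summed to 35.5 to 64.2 in DMSO and 192 to 219 with lapatinib, from PLIN1, 23.0 to 31.8 with GSK126 and 47.2 to 84.1 with both drugs, and ADIPOQ stayed between 0 and 8.89. Their part in the results was not tested.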

How the data were processed

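Messenger RNA was measured in 12 libraries of SKBR3 cells. Per the labels' protocols, RNA came from an RNeasy Plus Mini kit and libraries from a Kapa mRNA HyperPrep kit, read as 75 bp single ends. Per the submitters' processing notes, STAR, the build hg19 and DESeq2 were used, with no versions. The counter, the annotation, the filters and the use of strand are not given in the sources used here. Each deposited value is a normalized signal, the read count of a gene that the authors divided by the library's size factor. Dividing by what 1 read is worth gave whole reads for 100% of the values (tolerance 0.01, largest deviation 2.2e-09). The table held 22256 features, 86 of them spike-ins, which stayed out of the tests.

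The main test was limma 3.58.1 (R 4.3.3) on log2(value + 1), fitted to group means over all 12 libraries (8 residual degrees of freedom), a trended prior and Benjamini-Hochberg adjustment over the 14179 genes that reached 10 in 3 or more libraries, called at an adjusted p under 0.05. The spread is pooled over groups that differ in it. A fold change on this scale understates that of genes near 0. There were 6 comparisons: either drug with DMSO, the combination with DMSO and with either drug, and the interaction. Alternatives were pseudocounts, filters, 3 scalings, a constant prior, a fit restricted to the compared groups, a replicate block, the spike-in composition as a term, edgeR 4.0.16 and DESeq2 1.42.0 on the recovered reads, and leaving out each library. The procedure was tested on simulated data in which a gene had the same dispersion in every group. That test therefore does not cover groups that differ in spread, as these do.

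Sterol genes were named with a value in every library where they passed in a comparison or their lapatinib and DMSO libraries did not overlap, and others by range. Of each further list, up to 4 called genes a comparison with the smallest adjusted p were named, apart from genes that are not reported here. The members, lists and this rule were chosen with earlier results of these data known. Promoters came from RefSeq (GRCh38.p14). Genes whose exons overlap were read from a GENCODE annotation of GRCh38, by name only. No coordinates of the files' own build are printed.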

Additional observations from a re-analysis of the deposited data

How the results depend on the processing

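Counts are of the 28 sterol genes, lower then higher, where the main values were 13 and 2 (lapatinib against DMSO), 2 and 2 (GSK126 against DMSO), 13 and 1 (both drugs against GSK126), 5 and 3 (both drugs against lapatinib), 17 and 3 (both drugs against DMSO) and 0 and 0 (the interaction). Pseudocounts of 0.5 and 5 and a filter of 50 kept all of them within 1.5 times. Without a filter, and with TMM scaling, the members called higher with GSK126 were 1, against 1429 of 22170 and 1451 of 14179 genes tested. A constant prior variance gave 1 and 1 with GSK126 against DMSO (482 and 1497 of all genes). It gave 0 higher for both drugs against GSK126 (1095 of all genes). DESeq2 gave 4 higher with lapatinib (2248 of all genes) and 2 higher for both drugs against GSK126 (1562 of all genes), and edgeR moved none by over 1.5 times. Scaling to the total count, which moved the median of all genes by 0.16 with lapatinib, 0.10 with GSK126, 0.15 for both drugs against GSK126 and 0.25 against DMSO, gave 8 lower with lapatinib, 1 higher with GSK126 and 6 lower for both drugs against GSK126. Scaling to the spike-in total moved that median by -0.53, 0.04, -1.03, -0.46 and -1.00 in the order of the first 5 comparisons, and gave 4 and 0, 0 and 0, 17 and 0, 0 and 0, and 18 and 0. Fitting the compared groups alone gave 4 higher with lapatinib, 0 and 0 with GSK126, 5 and 0 for both drugs against GSK126, and 12 and 5 against lapatinib. The same calls over all genes were 3019, 66 and 803, 593 and 355, and 2426 and 2668. The spike-in composition as a term gave 4 higher with lapatinib, 0 and 0 with GSK126, and 8 and 0 for both drugs against GSK126. With that term all genes gave 2738, 55 and 391, and 781 and 366. Leaving out GSK126 libraries 2 and 3 and library 1 of both drugs, chosen after seeing the data, leaves 1 GSK126 library. That library is assumed to vary like the other groups, so no calls are given for this setting. The median log2 change of the sterol genes was then -0.43 with lapatinib, -0.14 with GSK126 and -0.33 for both drugs against GSK126. In the interaction it was 0.08, and DHCR7, named after its value was seen, was at 0.88.

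Leaving out 1 library at a time gave 9 to 15 lower and 1 to 4 higher with lapatinib, 0 to 5 and 1 to 4 with GSK126, 6 to 14 and 0 to 1 for both drugs against GSK126, 2 to 7 and 3 to 3 against lapatinib, 15 to 18 and 1 to 4 against DMSO, and 0 in the interaction. Over all genes the first 5 of these were 1342 to 2843 and 1151 to 2845, 233 to 1330 and 1199 to 1922, 823 to 2167 and 538 to 2244, 455 to 1562 and 1260 to 2023, and 2161 to 3613 and 2395 to 3838. The replicate numbers showed no steady pairing of the samples. Same-numbered libraries correlated at -0.33 to 0.35 (18 pairs, 4 of them over 0.1), and 4 of 12 libraries correlated best with their own number. With 3 libraries in a group these correlations cannot exclude pairing. With the replicate number as a block, both drugs against lapatinib gave 4 lower, since SREBF1 missed the threshold (adjusted p = 0.0714), and the block changed no other call or count.

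For all 28 genes, the spike-in total changed the sign of 6, 2, 8, 4, 5 and 16 in the order of the comparisons above, and the total count of 2, 5, 1, 1, 3 and 0. Among the 102 values of single genes that passed under any setting or are printed, there were 28 changes of sign, on the log2 scale. With the spike-in total as scale these were SCAP (-0.074) and SREBF1 (-0.10) with lapatinib, TM7SF2 (-0.46), SC5D (-0.83), INSIG2 (-0.29) and MYLIP (-0.80) for both drugs against GSK126, TM7SF2 (-0.55), SC5D (-0.50), INSIG2 (-0.37) and SOAT1 (-0.41) for both drugs against DMSO, and DHCR7 in the interaction (-0.29). For GSK126 against DMSO they were SREBF2 with the total count as scale (0.0049), and with 1 library left out SREBF2 without DMSO library 2 or GSK126 library 1 (-0.29 to 0.20 over the 12 fits), DHCR7 (-0.60 to 0.12) and INSIG2 (-0.39 to 0.15) without GSK126 library 1 and SC5D without GSK126 library 2 (-0.017 to 0.72). They were also INSIG2 with the composition term (0.22), and EBP (0.18) and SC5D (-0.53) without the 3 libraries named above. For both drugs against GSK126 they were PMVK (-0.60 to 0.036) and SC5D (-0.21 to 0.52) without GSK126 library 1, SC5D with the composition term (-0.11), and SREBF2 (0.28) and MYLIP (-0.16) without the 3 libraries. With the total count as scale MVK with lapatinib (0.019) and SCAP for both drugs against GSK126 (0.038) did so too. The last was DHCR7 in the interaction without GSK126 library 1 (-0.16 to 0.56). The cause was not tested. Genes with few reads, such as STARD4 and HSD17B7, carry more counting error than the rest.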
